A study of Mus musculus with 16 samples.

Results

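Receptors for GABA and glutamate set how hypothalamic cells respond to the main inhibitory and excitatory transmitters of the brain, and 34 genes for their subunits were followed here among the 28683 genes of the tables. The genes were chosen by symbol: 11 subunits of GABA-A receptors, 2 of GABA-B receptors, 4 of AMPA receptors, 5 of kainate receptors, 6 of NMDA receptors, and 6 metabotropic glutamate (mGlu) receptors. All 34 were present in the tables.

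GABA-A receptors are chloride channels whose subunit make-up sets their location, kinetics and drug sensitivity, whereas GABA-B receptors act through G proteins and need both Gabbr1 and Gabbr2. AMPA and kainate receptors carry fast excitatory currents, and NMDA receptors, which all contain Grin1, pass calcium when glutamate and depolarisation coincide. The mGlu receptors couple to G proteins, and glial cells, above all astrocytes and the polydendrocytes that give rise to oligodendrocytes, are known to carry several receptors of both transmitters.

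The hypothalamus together with the preoptic area was taken from 16 female mice of a mixed CD-1;129P2 strain, aged 8 to 10 weeks at the start, and each mouse gave 1 Drop-seq library, in which transcripts are counted per cell barcode by unique molecular identifiers (UMIs). Wild-type (WT) mice received corn oil (n = 3) or tamoxifen (n = 5), and mice with a conditional loss of estrogen receptor alpha (Esr1cKO) received corn oil (n = 4) or tamoxifen (n = 4). Tamoxifen was given under the skin at 0.1 mg/kg in 28 daily injections over 4 weeks, oil was the vehicle of the same injections, and the mice were killed 2 h after the last injection. Esr1cKO mice carried floxed Esr1 alleles and an Nkx2-1-Cre transgene, so that Cre acts in cells of the Nkx2-1 lineage and not in the other cells of the tissue, and the WT mice were littermates without Cre. Mice were processed on 4 days with 4 mice per day, but the labels do not tie a mouse to a day, so the day could not be entered as a term.

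Depth ran from 2634253 to 8038158 UMIs per library; the 1746 to 5568 cells kept in each took up 48.9% to 76.8% of them, at a median of 563 to 819 UMIs per cell. The 55675 kept cells fell into 9 cell types, each of which passed 7 or 8 of its 8 defining markers, and 9133 (16.4%) of the cells were neurons, with 243 to 905 per library. The types were not all pure. Endothelial cells also passed 6 mural markers, and 653 of them were typed as mural by marker UMIs alone. In the same way, 2269 of 4443 polydendrocytes kept their type, 693 were typed as oligodendrocytes and 1325 stayed unnamed. Of 3177 ependymal cells, 1649 kept their type, 290 were typed as neurons and 869 stayed unnamed. Fibroblasts had Bpifa1 and Tshb among their leading genes. In a finer clustering, 217 cells led by these 2 genes stayed unnamed, and 1278 ependymal cells formed a group led by Scn7a, Gpr50 and Rax. The subunit genes were left out of the variable genes used to group cells, so the groups were set without them. Barcodes were shared between libraries S13 to S16 (303 to 359 per pair, 8.11% to 10.8% of the smaller library), less so between these and library S5 (10 to 42 per pair), and at 0 to 10 in the other 110 pairs, so counts of calls are given below with and without the 1717 cells that carry a shared barcode. Libraries S10 (WT oil replicate 3) and S11 (Esr1cKO tamoxifen replicate 3) stood apart from the others in genes with long introns and were left out of the comparisons of groups. In the 14 libraries left, Esr1 itself stood in neurons at 49.7 and 86.5 CPM (UMIs of a gene per 1000000 UMIs of the cell group in that library) in WT oil, 57.3 to 74.4 CPM in WT tamoxifen, 41.5 to 59.1 CPM in Esr1cKO oil and 49.6 to 73.8 CPM in Esr1cKO tamoxifen, and these ranges overlapped. The floxed allele loses an internal exon, while Drop-seq reads lie near the 3′ end, so the values do not check the deletion.

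The lower level of long genes in these libraries extended to the subunit genes. In neurons, 17 of the 34 genes were below the range of the other 14 libraries in both S10 and S11, and none was above it. Among genes past a filter on low counts these were 16 of 30 subunit genes, beside 14.3% below and 6.11% above for all 9093 genes. The summed intron length of the 34 genes had a median of 208.7 kb, and 14 of the 17 genes above that length were below the range in both, against 3 of the 17 genes under it. The mean of S10 and S11 over the median of the other libraries was 0.356 in the median longer gene and 0.844 in the median shorter gene. Grin2a, an NMDA subunit gene with 409.7 kb of introns, stood at 3.08 and 1.39 CPM in S10 and S11 and at 32.2 to 79.3 CPM in the other libraries. Grm8, an inhibitory mGlu receptor with 850.2 kb of introns, stood at 20.5 and 17.1 CPM and at 196 to 342 CPM in the others. Gabbr1, with 21.3 kb of introns, was at 330 and 362 CPM, inside the 230 to 574 CPM of the others. Levels by cell type below are given over all 16 libraries, so S10 or S11 often set the lowest value of a range, also where they are not named.

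**Figure D1:**
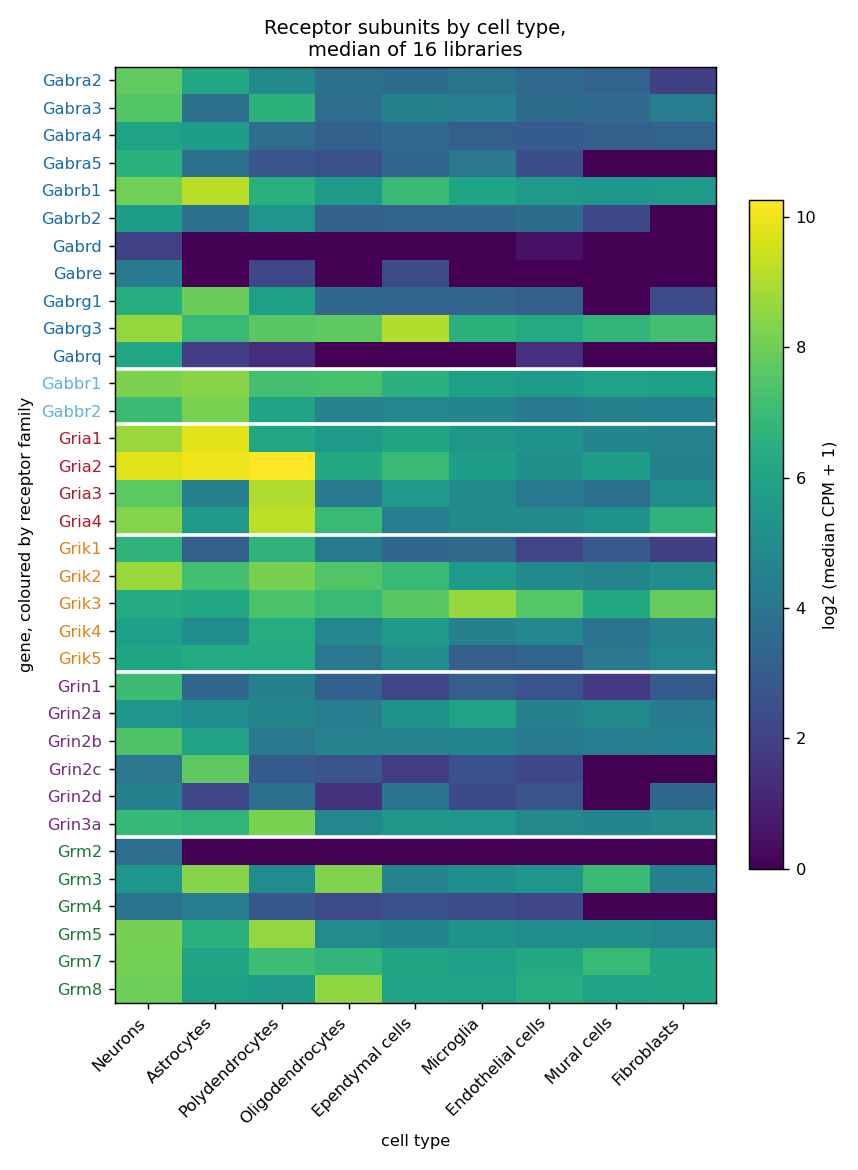
Median CPM of each subunit gene over 16 libraries in 9 cell types, as log2 (median CPM + 1) on the colour scale, with genes on the vertical axis coloured and divided by receptor family and cell types on the horizontal axis. Neurons held the highest median for 15 genes, astrocytes for 8 and polydendrocytes for 7, a ranking not made over all genes. Colours compare cell types within a gene, since genes differ in length.

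To ask where each gene was expressed most, its median CPM was ranked over the 9 cell types. Neurons ranked first for 15 genes, astrocytes for 8, polydendrocytes for 7, microglia for 2, and oligodendrocytes and ependymal cells for 1 each. Several first places were not separated from the next cell type by the spread of the libraries. Grik1, a kainate subunit, had medians of 101 CPM in neurons and 99.9 CPM in polydendrocytes and was higher in neurons in 7 of 16 libraries. Gabra4, a GABA-A subunit, had medians of 59.1 CPM in neurons and 53.2 CPM in astrocytes and was higher in neurons in 9 of 16. Grik5, a high-affinity kainate subunit, had medians of 78.3 CPM in polydendrocytes and 78.1 CPM in astrocytes (7 of 16), and Grm3, a presynaptic and glial mGlu receptor, had 336 CPM in astrocytes and 311 CPM in oligodendrocytes (8 of 16). Gabrg3 was higher in ependymal cells than in neurons in 13 of 16 libraries, and Grm8 higher in oligodendrocytes than in neurons in 12 of 16. In S10 and S11 neurons were the higher for both genes. The first place was above the second in all 16 libraries for 17 genes. Neither this count nor the ranking was made over all genes, so they describe these genes and do not set them apart.

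Against all other typed cells together, neurons had higher levels of nearly the whole set of subunits. Sums of UMIs per library over neurons and over the other cells were compared with the edgeR quasi-likelihood test, with the library as a block, trimmed-mean (TMM) scaling and Benjamini-Hochberg adjustment over all genes tested, at a threshold of 0.05. Of the 33 genes tested, 30 were higher and 3 (Grik3, Grin2c and Grm3) lower in neurons, with a median log2 fold change of 1.36. Over all 13061 genes tested, 40.4% were higher and 41.3% lower, with a median of 0. The counts were 30 and 3 again without cells of shared barcodes. Higher here means above the pool of the other cells and not above each type, since astrocytes ranked first for 8 genes and polydendrocytes for 7. Gabrd, the delta subunit of extrasynaptic GABA-A receptors, had 89 UMIs in all neurons and did not pass the filter on low counts. That filter can pass a gene through neurons alone, as for Grm2, Gabrq and Gabre (26, 90 and 81 UMIs in all other cells), which favours higher calls. Without it, 31 of 34 genes were higher and 3 lower.

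**Figure D2:**
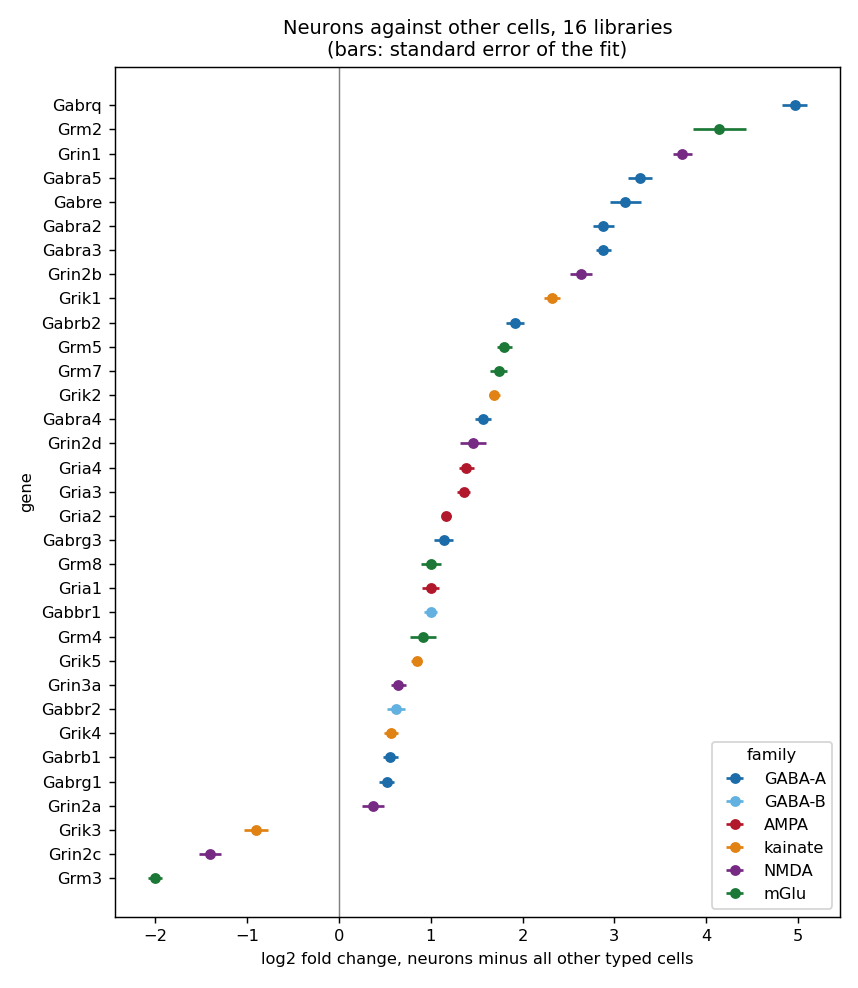
Log2 fold change of neurons over all other typed cells for the 33 subunit genes tested over 16 libraries, with bars for the standard error of the fit and colours for receptor family. Values run from −2.0 for Grm3 to 4.96 for Gabrq, and all but Grm3, Grin2c and Grik3 lie above 0.

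All 10 GABA-A genes tested were higher in neurons than in the pooled other cells, with a median log2 fold change of 2.4. Astrocytes had higher medians than neurons for Gabrb1 (588 and 265 CPM) and Gabrg1 (238 and 84.8 CPM). Ependymal cells did for Gabrg3 (540 and 392 CPM), and were higher in 13 of 16 libraries. Gabrq, the theta subunit, which is enriched in hypothalamic and monoaminergic neurons, ranged from 50.8 to 97.4 CPM in neurons (median 69.4) and from 0 to 3.81 CPM in the other cells (median 2.2). The ranges did not overlap, and the log2 fold change was 4.96 ± 0.14 (SE, edgeR adjusted p = 3.8e-22). With only 90 UMIs in all other cells, Gabrq passed the filter on low counts through its level in neurons. Its adjusted p is therefore no separate support, and the values only describe it. Gabrg1, a gamma subunit, ranged from 60.4 to 128 CPM in neurons (median 84.8) and from 41.9 to 76.7 CPM in the others (median 62.2). Here the ranges overlapped, and the fold change was 0.52 ± 0.08 with the neurons higher in 15 of 16 libraries (edgeR adjusted p = 1.21e-06). The alpha genes Gabra2, Gabra3, Gabra4 and Gabra5, which help to form the GABA binding site, had log2 fold changes of 2.88, 2.88, 1.57 and 3.28, the beta genes Gabrb1 and Gabrb2 had 0.56 and 1.92, Gabrg3 had 1.14, and Gabre, the epsilon subunit, had 3.12. Both GABA-B genes were higher in neurons than in the pooled other cells, by less than most GABA-A genes. Astrocytes had higher medians than neurons for both (Gabbr1 348 and 297 CPM, Gabbr2 289 and 126 CPM). Gabbr1, which binds GABA, ranged from 230 to 574 CPM in neurons (median 297) and from 115 to 198 CPM in the others (median 152), a log2 fold change of 1.0 ± 0.07 (edgeR adjusted p = 1.36e-13) without overlap. Gabbr2, which couples the receptor to G proteins, ranged from 80.8 to 223 CPM (median 126) against 39 to 106 CPM (median 81.8), a log2 fold change of 0.62 ± 0.10 (edgeR adjusted p = 4.1e-06) with overlapping ranges.

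The 4 AMPA genes were all higher in neurons than in the pooled other cells, with log2 fold changes of 1.0 to 1.39. A glial type had a higher median than neurons for each of them. For Gria1 it was astrocytes (905 and 415 CPM). For the others it was polydendrocytes (Gria2 1220 and 888 CPM, Gria3 524 and 203 CPM, Gria4 603 and 329 CPM). Gria4 ranged from 79 to 538 CPM in neurons (median 329) and from 33.7 to 188 CPM in the others (median 117), and was higher in neurons in 16 of 16 libraries (log2 fold change 1.39 ± 0.08, edgeR adjusted p = 2.05e-15). Gria1 ranged from 251 to 607 CPM (median 415) against 56.1 to 285 CPM (median 218), with a log2 fold change of 1.0 ± 0.09 (edgeR adjusted p = 1.32e-10). The lowest neuronal values of both came from S10 and S11, and the overlap of the ranges rested on these libraries. Among kainate genes, Grik1 stood highest over the other cells, at 24.9 to 143 CPM (median 101) against 4.26 to 30.2 CPM (median 19.5), a log2 fold change of 2.32 ± 0.09 (edgeR adjusted p = 3.92e-19). Grik2, Grik5 and Grik4 were also higher, by 1.69, 0.85 and 0.57. Grik3, a kainate subunit of low glutamate sensitivity, was lower in neurons, at 31.4 to 130 CPM (median 78.1) against 12.8 to 325 CPM (median 161), in 14 of 16 libraries (log2 fold change −0.90 ± 0.13, edgeR adjusted p = 7.14e-07). The libraries in which it was higher in neurons were S10 and S11, and a fit to these libraries alone, chosen after seeing the data, gave 1.06 ± 0.27 (edgeR adjusted p = 2.15e-04).

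NMDA genes were split. Grin1, the obligatory subunit, ranged from 70.6 to 235 CPM in neurons (median 128) and from 3.97 to 18 CPM in the others (median 8.71), without overlap, and had the largest fold change of the family (log2 3.74 ± 0.10, edgeR adjusted p = 2.59e-22). Grin2b, Grin2d and Grin3a were higher by 2.64, 1.46 and 0.65. Grin2c was lower in neurons in 16 of 16 libraries, at 8.47 to 37.6 CPM (median 15.6) against 28.4 to 63 CPM (median 46.8), a log2 fold change of −1.40 ± 0.12 (edgeR adjusted p = 9.38e-12). Grin2a had a log2 fold change of 0.37 ± 0.12 (edgeR adjusted p = 0.00517), which fell to 0.00 (adjusted p = 0.995) without the neuronal clusters led by Lrrtm4 and B230323A14Rik, an alternative chosen after seeing the data, and to 0.14 (adjusted p = 0.335) in cells with under 5% mitochondrial UMIs. Of the mGlu genes, Grm2, an inhibitory autoreceptor, had 227 UMIs in neurons and 26 in all other cells, at 4.75 to 21.3 CPM (median 11.7) against 0 to 2.01 CPM (median 0.15), a log2 fold change of 4.14 ± 0.29 (edgeR adjusted p = 2.29e-13). Grm2 passed the filter on low counts through its level in neurons, so its adjusted p is no separate support and the values only describe it. Grm5 and Grm7 were higher by 1.80 and 1.74, and Grm8 and Grm4 by 1.0 and 0.92. Grm3 was lower in neurons in 16 of 16 libraries, at 13.3 to 62.1 CPM (median 40.7) against 49.4 to 292 CPM (median 154), a log2 fold change of −2.0 ± 0.08 (edgeR adjusted p = 1.97e-18).

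The other genes of GABA and glutamate signalling, a list of 57 of which 56 were in the tables, gave a reference for the receptors. Of 53 tested, 41 were higher and 10 lower in neurons, with a median log2 fold change of 1, close to the median of the receptor genes. The largest were Gad2, which makes GABA (5.27 ± 0.11), Slc32a1, which loads GABA into vesicles (4.56 ± 0.14), and Slc17a6, which loads glutamate (4.48 ± 0.10). Of the 5 genes of transmitter uptake none was higher and 4 were lower, among them Slc1a3 (−4.15), Slc6a11 (−3.45) and Slc1a2 (−2.96).

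Each non-neuronal type was then compared with the other non-neuronal cells, neurons being left out of both sides, with the same test. Transcripts of neurons were present at a low level in every non-neuronal type: 8 neuronal markers stood at a median of 3.26% to 5.82% of their neuronal CPM, and the highest single marker reached 8.14% in fibroblasts and 29% in endothelial cells (Stmn2). By the same ratio, 25 subunit genes in astrocytes, 25 in polydendrocytes, 24 in oligodendrocytes, 27 in fibroblasts, 17 in microglia, 14 in ependymal cells, 12 in mural cells and 7 in endothelial cells were above every neuronal marker. The bar differed by type and the share over all genes was not computed, so these counts do not rank the types or show expression. In fibroblasts some of these genes rested on few UMIs (Gabrd 2, Grm4 6, Gabre 7).

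Of the non-neuronal types, astrocytes had the most subunit genes higher. Of 27 subunit genes tested, 16 were higher and 8 lower than in the other non-neuronal cells, with a median log2 fold change of 0.71; over all genes 33.3% were higher and 39.4% lower, with a median of −0.05. Without the filter on low counts, 16 of 34 were higher and 8 lower. Grin2c, an NMDA subunit that gives channels of weak magnesium block, ranged from 142 to 322 CPM in astrocytes (median 210) and from 2.76 to 11.6 CPM in the others (median 5.15), a log2 fold change of 5.32 ± 0.10 (edgeR adjusted p = 1.47e-33). Grin2c passed that filter through its level in astrocytes. Its adjusted p is therefore no separate support, and the values only describe it. Gria1 ranged from 336 to 1040 CPM (median 905) against 21.9 to 78.8 CPM (median 53.1), a log2 fold change of 4.10 ± 0.09 (edgeR adjusted p = 1.23e-32). Gabrg1 ranged from 153 to 330 CPM (median 238) against 11.2 to 22.4 CPM (median 15.3), a log2 fold change of 4.02 ± 0.10 (edgeR adjusted p = 6.98e-31). None of these ranges overlapped, and S10 and S11 were inside the range of the other libraries for Grin2c (197 and 218 CPM) and below it for Gria1 (449 and 336 CPM). Both GABA-B genes were higher in astrocytes (Gabbr2 3.44, Gabbr1 1.98), as were Gria2 (2.37), Grm4 (1.94), Grik5 (1.76), Grin2b (1.64), Grm3 (1.60), Grin3a (0.71), Grik2 (0.43) and Grm5 (0.20). Grm4 had a median of 18.6 CPM in astrocytes and 5.81 CPM in polydendrocytes, the next non-neuronal type, so its call has the same limit as that of Grin2c. Of the other genes of GABA and glutamate signalling, 22 of 42 were higher, led by the transporters Slc6a11 (5.10), Slc1a3 (3.91) and Slc1a2 (3.77).

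Of the GABA-A genes, those higher in astrocytes were Gabrg1, Gabrb1 (3.35), Gabra2 (2.49) and Gabra4 (2.44), and these are neighbours on chromosome 5 (mouse build GRCm38): Gabrg1 at chr5:70751047-70842617, Gabra2 at chr5:70957597-71095849 and Gabra4 at chr5:71569749-71658308 on the minus strand, and Gabrb1 at chr5:71658113-72149037 on the plus strand. Gabra4 and Gabrb1 overlap at their 5′ ends, and whether strand was used in counting is not given in the sources used here, so reads in the overlap cannot be assigned to either gene. Because these genes were high together, the 250 bases before the RefSeq start of 2 of them, and of Grin2c as the gene highest in astrocytes, are shown from GRCm38.p6, 5′ to 3′ on the gene's strand, with CG in capitals.
Gabrg1, chr5:70842618-70842867, minus strand: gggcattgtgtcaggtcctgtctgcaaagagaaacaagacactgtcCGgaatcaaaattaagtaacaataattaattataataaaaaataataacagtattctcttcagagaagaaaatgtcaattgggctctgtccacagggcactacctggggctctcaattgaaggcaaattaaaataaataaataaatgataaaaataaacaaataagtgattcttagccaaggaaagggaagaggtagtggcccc
Gabra2, chr5:71095850-71096099, minus strand: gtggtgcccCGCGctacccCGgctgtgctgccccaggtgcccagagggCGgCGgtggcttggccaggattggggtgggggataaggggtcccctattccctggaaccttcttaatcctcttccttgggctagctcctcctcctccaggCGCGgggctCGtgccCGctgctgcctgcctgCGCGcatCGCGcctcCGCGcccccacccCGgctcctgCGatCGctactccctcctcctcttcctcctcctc
Grin2c, chr11:115267244-115267493, minus strand: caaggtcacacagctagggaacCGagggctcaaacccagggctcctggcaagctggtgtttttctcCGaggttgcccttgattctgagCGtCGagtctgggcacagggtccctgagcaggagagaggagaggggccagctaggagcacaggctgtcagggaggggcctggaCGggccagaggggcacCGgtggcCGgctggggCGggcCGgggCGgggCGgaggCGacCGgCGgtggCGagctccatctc
The windows held 1 CG dinucleotide in Gabrg1, 18 in Gabra2 and 15 in Grin2c, against a median of 6 over 32851 RefSeq windows of that length. Those of Gabra4 (12 CG) and of the 2 starts of Gabrb1 (18 and 6 CG) overlap exons of another gene and are not printed. The estrogen response element searched on both strands, GGTCA and TGACC with 3 bases between them, was in none of them and in 21 (0.0639%) of all windows.

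**Figure D3:**
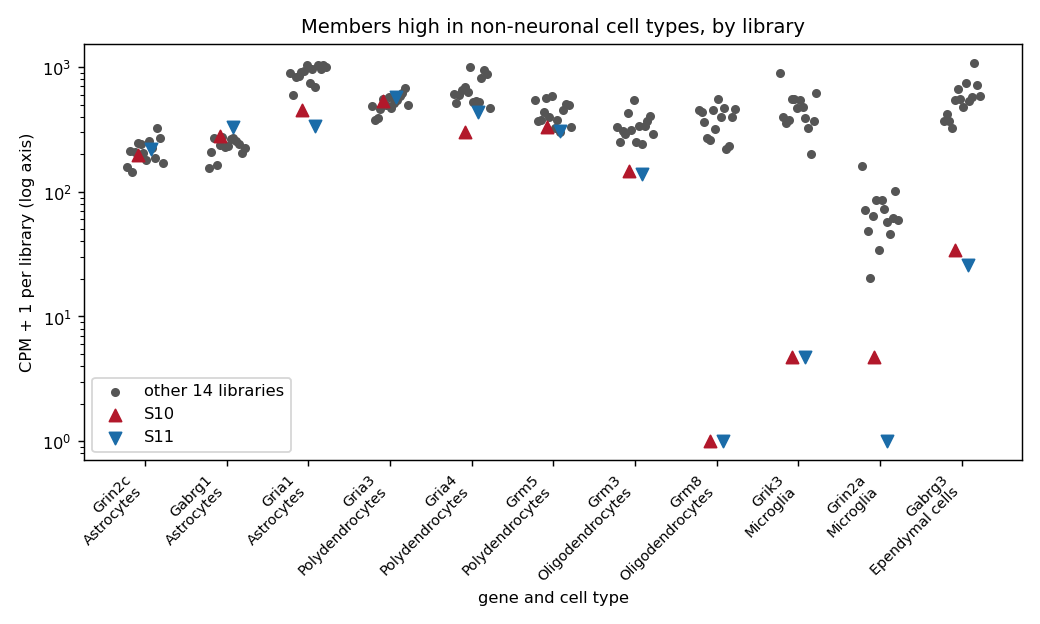
CPM + 1 (log axis) in each of 16 libraries for 11 subunit genes in the non-neuronal cell type named under each, with libraries S10 and S11 as triangles and the other 14 as grey points. S10 and S11 lie inside the other libraries for Grin2c, Gria3 and Grm5, and far below them for Grm8, Grik3, Grin2a and Gabrg3.

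In polydendrocytes 3 of the 4 AMPA genes and 4 of the 5 kainate genes were higher than in the other non-neuronal cells. Of 26 genes tested, 12 were higher and 8 lower, with a median log2 fold change of 0.01; over all genes 33% were higher and 34.5% lower, with a median of 0. Gria3 ranged from 377 to 683 CPM (median 524) against 6.47 to 34.2 CPM in the other non-neuronal cells (median 26.1), a log2 fold change of 4.29 ± 0.11 (edgeR adjusted p = 5.15e-32). Gria4 ranged from 300 to 1010 CPM (median 603) against 15.2 to 79.2 CPM (median 60.3), with 3.32 ± 0.09 (edgeR adjusted p = 3.8e-32). Grm5, which couples to calcium release, ranged from 301 to 581 CPM (median 384) against 11.6 to 77.5 CPM (median 46.8), with 3.09 ± 0.11 (edgeR adjusted p = 1.05e-27). The ranges of these 3 genes did not overlap. The kainate genes Grik1 (2.99), Grik2 (1.29), Grik4 (1.27) and Grik5 (1.20) were all higher, as were Gabra3 (2.56), Grin3a (2.51), Gria2 (1.95), Gabrb2 (1.85) and Grm7 (0.61). The auxiliary subunits Cacng4 (5.35), Neto1 (4.32) and Shisa7 (4.21) led the other list, of which 28 of 41 were higher.

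In oligodendrocytes 7 of 26 genes were higher and 17 lower, with a median log2 fold change of −0.66, while 32.1% of all genes were higher and 43.5% lower. Grm8 ranged from 0 to 554 CPM (median 378) against 0.855 to 87.3 CPM (median 69.6), a log2 fold change of 2.65 ± 0.07 (edgeR adjusted p = 2.24e-27). The zeros were S10 and S11, in which a count of 3 would be 6.31 and 3.93 CPM, while the other 14 libraries held 220 to 554 CPM, all above the other cells. Grm3 ranged from 139 to 547 CPM (median 311) against 22.3 to 185 CPM (median 113) and was higher in 16 of 16 libraries (log2 fold change 1.79 ± 0.07, edgeR adjusted p = 5.47e-22). Grik2 (0.83), Grm7 (0.62), Gabrg3 (0.46), Gria4 (0.29) and Gabbr1 (0.27) were higher by less. The list of other genes was led here by Slc38a2 (1.78), Dlg1 (1.58) and Glul (1.28).

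In ependymal cells 4 of 26 genes were higher and 17 lower (median −0.74), beside 31.9% and 34.2% of all genes. Gabrg3 was far above the rest, at 25 to 1080 CPM (median 540) against 10.8 to 192 CPM (median 142), and was higher in 16 of 16 libraries (log2 fold change 1.98 ± 0.11, edgeR adjusted p = 7.45e-17). S10 and S11 gave 33.3 and 25 CPM and the other libraries 321 to 1080 CPM. Grik4 (0.58), Grin2a (0.54) and Grik3 (0.43) were the others. In microglia 2 of 25 genes were higher and 21 lower (median −0.92), beside 30.9% and 41.8% of all genes. Grik3 ranged from 3.74 to 888 CPM in microglia (median 396) against 13.6 to 265 CPM (median 135), higher in 14 of 16 libraries (log2 fold change 1.85 ± 0.09, edgeR adjusted p = 2.26e-23), and Grin2a from 0 to 159 CPM (median 59.5) against 0 to 61.1 CPM (median 27.3), higher in 15 of 16 (log2 fold change 1.38 ± 0.14, edgeR adjusted p = 3.9e-12). S10 and S11 held 3.75 and 3.74 CPM of Grik3 in microglia, and the other libraries 201 to 888 CPM, and a fit to S10 and S11 alone gave −1.69 ± 0.94 (edgeR adjusted p = 0.17).

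Vascular and meningeal cells had the fewest. Endothelial cells had 0 of 26 genes higher and 23 lower (median −1.66; all genes 36.1% higher and 38.4% lower), mural cells 1 higher and 18 lower of 25 (median −1.01; 18.3% and 31.8%), and fibroblasts 1 higher and 16 lower of 25 (median −1.37; 17% and 25%). The gene higher in mural cells was Grm7 (0.92 ± 0.15, edgeR adjusted p = 1.04e-08), in 9 of 16 libraries only, and DESeq2 did not call it. The gene higher in fibroblasts was Grik3 (0.52 ± 0.13, edgeR adjusted p = 3.67e-04, in 11 of 16 libraries). Over the 8 types, 43 calls of higher expression were made, and 43 again without cells of shared barcodes.

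To ask whether inhibitory and excitatory neurons differ in their receptors, neurons with at least 1 UMI of Gad1, Gad2 or Slc32a1 and none of Slc17a6 (GABA neurons, 3929 cells, median 1943 UMIs) were compared with neurons showing the reverse (glutamate neurons, 1605 cells, median 2367 UMIs). The 289 neurons with both and the 3310 with neither were in no class, and libraries held 87 to 366 GABA and 17 to 161 glutamate neurons. Of 28 genes tested, 7 were higher and 5 lower in GABA neurons, with a median log2 fold change of 0.00, where 5.63% of all 7248 genes were higher and 6.5% lower with a median of 0.01. The counts were 12 in all with and without cells of shared barcodes. Without the neuronal clusters led by Lrrtm4 and B230323A14Rik, chosen after seeing the data, 6 were higher and 6 lower.

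**Figure D4:**
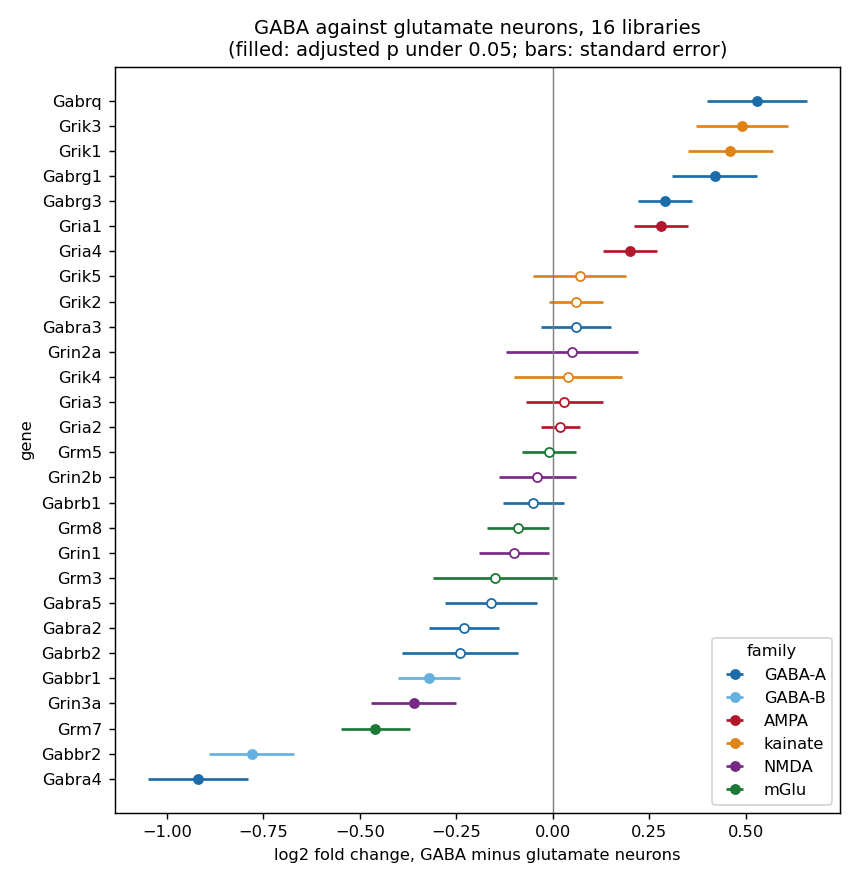
Log2 fold change of GABA over glutamate neurons for 28 subunit genes over 16 libraries, with filled points for an adjusted p under 0.05, bars for the standard error and colours for family. Gabra4 (−0.92) and Gabbr2 (−0.78) lie farthest below 0, and Gabrq (0.53) and Grik3 (0.49) farthest above.

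Glutamate neurons as a pool had more of both GABA-B genes and of Gabra4. Among neuronal clusters, Gabra4 (365 CPM) and Gabbr2 (446 CPM) were highest in that led by Shox2, described below, which had Slc17a6 at 1130 CPM. The part of that cluster in the class differences was not tested, so they need not hold for glutamate neurons in general. Gabra4, an alpha subunit of extrasynaptic and synaptic receptors, ranged from 27 to 61.1 CPM in GABA neurons (median 39.5) and from 32.6 to 124 CPM in glutamate neurons (median 71.3), and was lower in GABA neurons in 14 of 16 libraries (log2 fold change −0.92 ± 0.13, edgeR adjusted p = 1.57e-06). Gabbr2 ranged from 64.4 to 128 CPM (median 92.7) against 79.5 to 327 CPM (median 147), lower in 13 of 16 (−0.78 ± 0.11, edgeR adjusted p = 1.51e-06). Gabbr1 ranged from 217 to 333 CPM (median 294) against 209 to 875 CPM (median 315), lower in 12 of 16 (−0.32 ± 0.08, edgeR adjusted p = 0.00619). All these ranges overlapped between the classes. Grm7, a presynaptic mGlu receptor, ranged from 35 to 402 CPM (median 185) against 45.4 to 489 CPM (median 292), lower in 13 of 16 (−0.46 ± 0.09, edgeR adjusted p = 1.31e-04). Among clusters it was highest in that led by B230323A14Rik (3530 CPM), which had Slc17a6 at 366 CPM. Grin3a, an NMDA subunit that lowers calcium permeability, ranged from 62.8 to 163 CPM (median 97.9) against 78.9 to 167 CPM (median 115), lower in 11 of 16 (−0.36 ± 0.11, edgeR adjusted p = 0.0316), but was not called without S10 and S11 (−0.28, adjusted p = 0.151), with DESeq2 (adjusted p = 0.0736) or without any of 6 single libraries (−0.34 to −0.31): WT oil replicate 3, WT tamoxifen replicate 2, Esr1cKO oil replicates 3 and 4, and Esr1cKO tamoxifen replicates 1 and 3.

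GABA neurons had more of Gabrq, of 2 gamma subunits and of 2 kainate subunits. Gabrq ranged from 51.9 to 118 CPM (median 77) against 20.8 to 130 CPM in glutamate neurons (median 56.8), higher in 13 of 16 libraries (log2 fold change 0.53 ± 0.13, edgeR adjusted p = 0.00461). Grik3 ranged from 38.9 to 181 CPM (median 88.2) against 20 to 124 CPM (median 66.8), higher in 13 of 16 (0.49 ± 0.12, edgeR adjusted p = 0.00265). Grik1 ranged from 27.8 to 174 CPM (median 126) against 20.5 to 151 CPM (median 81.9), higher in 12 of 16 (0.46 ± 0.11, edgeR adjusted p = 0.00352). Library ranges of each of these genes overlapped. Gabrg1 ranged from 77.8 to 150 CPM (median 104) against 39.9 to 130 CPM (median 80.3) and was higher in 15 of 16 (0.42 ± 0.11, edgeR adjusted p = 0.00606), and Gabrg3 from 91.5 to 538 CPM (median 435) against 66.5 to 430 CPM (median 338), higher in 14 of 16 (0.29 ± 0.07, edgeR adjusted p = 0.00139). Gria1 (0.28) and Gria4 (0.20, edgeR adjusted p = 0.0413) were the others called higher. Gria4 was not called without S10 and S11 (0.18, adjusted p = 0.106), with DESeq2 (0.19, adjusted p = 0.0687), with a class from at least 2 UMIs (0.14, adjusted p = 0.282) or without any of 10 single libraries (0.17 to 0.20).

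Low-count genes showed the widest separation but passed no filter, and are given from the fit without one. Grm2 ranged from 0 to 7.16 CPM in GABA neurons (median 1.62) and from 0 to 62.5 CPM in glutamate neurons (median 30.6), lower in 15 of 16 libraries (log2 fold change −3.33 ± 0.28, edgeR adjusted p = 1.84e-30, from 24 and 134 UMIs). Grin2c ranged from 10.2 to 49.8 CPM (median 21.4) against 0 to 23.3 CPM (median 5.44), higher in 16 of 16 (2.07 ± 0.27, edgeR adjusted p = 3.64e-12, from 217 and 25 UMIs). This gene was highest in the neuronal cluster led by Vipr2, described below, which had little Slc17a6 (7.24 CPM). It stood there at 162 CPM, and at 17.5 CPM over all neurons. The part of that cluster in the class difference was not tested, so the value need not hold for GABA neurons in general. Grm4, an inhibitory autoreceptor, had −1.16 ± 0.22 (edgeR adjusted p = 1.35e-05) and Gabre had 1.13 ± 0.23 (edgeR adjusted p = 5.87e-05), while Grin2d (0.10) and Gabrd (−0.34) were not called. Among the other genes, the 4 that define the classes being left out, 8 of 42 were higher and 5 lower with a median of 0.04, with Cacng5 (0.64) and Shisa7 (0.59) among the 3 highest in GABA neurons. Nptx1 (−1.01), Homer2 (−0.69) and Nptxr (−0.57) were the lowest.

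Neurons were clustered again into 24 clusters of 38 to 1540 cells, each called here by its leading gene, and each was compared with all other neurons. Of 660 tests of a subunit gene in a cluster, 78 were called higher and 238 lower, 11.8% and 36.1% of them, beside 6.21% and 17.5% of the 156018 tests of all genes. Gabrd, Gabre, Grm2 and Grm4 were tested in no cluster, and Grin2c in 1. Without the filter on low counts the calls were 50 higher and 380 lower. Clusters with 0 genes higher were those of Gm5741, Trh, Hba-a2, Vip, Tac2, Agrp, Slc6a3 and Ndnf, in which 25 to 28 subunit genes were tested and 0.24% to 2.67% of all genes were higher, so these zeros are near the background. In 4 clusters (1635 neurons), at least 3 markers of another cell type were raised, among them oligodendrocytes in the cluster led by Gm10800, endothelial cells in Hba-a2 and microglia in Vip, and their part in the calls was not tested. Without cells of shared barcodes 307 calls were made, 76 higher and 231 lower, where 316 were made with them.

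**Figure D5:**
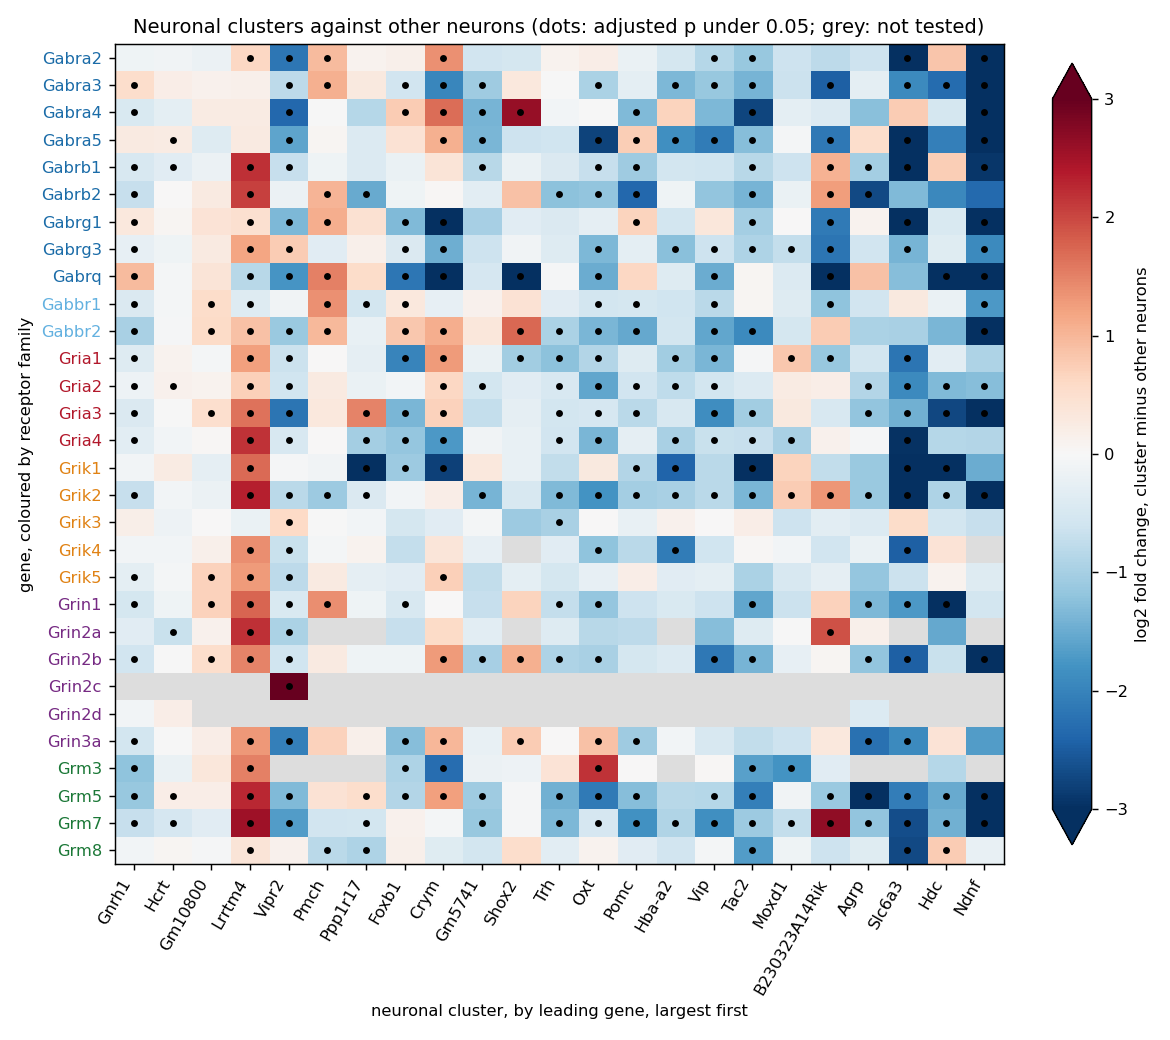
Log2 fold change of each neuronal cluster (horizontal axis, by leading gene, largest first) over the other neurons for 30 subunit genes (vertical axis, coloured by family), with dots for an adjusted p under 0.05 and grey for genes not tested, 1 cluster being left out. The Lrrtm4 column is mostly red (22 higher, 2 lower), and the Vipr2 column mostly blue (3 higher, 21 lower) except for Grin2c (4.78).

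The cluster led by Vipr2, which also had Prokr2, Rgs16, Nms and Vip among its 10 leading genes and had Gad1 and Gad2 at 439 and 789 CPM with Slc17a6 at 7.24 CPM, stood out by Grin2c. The gene ranged from 87 to 280 CPM over 16 libraries (median 151) and from 2.27 to 12.6 CPM in the other neurons (median 5.23), without overlap, a log2 fold change of 4.78 ± 0.20 (edgeR adjusted p = 4.41e-41). Grin2c passed the filter on low counts in this cluster only, and did so through its high level there. Its adjusted p is therefore no separate support, and the values only describe the cluster. Of 28 genes tested there, 3 were higher and 21 lower, beside 18.2% and 18.1% of all genes. The lower genes included Gabra4 (−2.36), Gria3 (−2.20), Gabra2 (−2.17) and Grin3a (−2.06), and the other higher genes were Gabrg3 and Grik3. Of the other list, Gad1 (1.38), Cacng5 (1.23) and Slc6a11 (0.81) were highest.

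The cluster led by Lrrtm4 had the most higher calls. Its neurons held a median of 807.5 UMIs, and 0 of its 1066 cells came from S10 or S11. Of 28 genes tested, 22 were higher and 2 lower, where 37.5% of all genes were higher and 40% lower. By intron length, 15 of 17 genes with longer introns were higher (median 1.51), and 7 of 11 tested with shorter introns (median 0.61). All 17 longer genes were tested, but only 11 of the 17 shorter ones passed the filter on low counts. The split was not made over all genes, so it describes these genes only. Grm7 had the largest fold change, at 832 to 1870 CPM over 14 libraries (median 1180) against 148 to 401 CPM in the other neurons (median 228), a log2 fold change of 2.55 ± 0.10 (edgeR adjusted p = 1.33e-37). In the list of other genes Dlg2 (3.05) and Kctd16 (2.89) were among the 3 highest. The cluster led by B230323A14Rik, with 87 neurons and none from S10 or S11, also had its largest fold change for Grm7, at 702 to 6050 CPM over 10 libraries (median 3820) against 199 to 451 CPM (median 269), a log2 fold change of 2.66 ± 0.27 (edgeR adjusted p = 8.58e-21).

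Gabra4 had the largest called fold change of the subunit genes in the clusters led by Shox2 and Crym. The cluster led by Shox2, with Slc17a6 at 1130 CPM, held 0 to 684 CPM of Gabra4 over 12 libraries (median 305) against 41.7 to 60.7 CPM (median 48.4), higher in 11 of 12 (log2 fold change 2.61 ± 0.24, edgeR adjusted p = 1.99e-24). The Crym cluster, in which Slc17a7 (4.02), the vesicular glutamate transporter of cortical-type neurons, led the other list, held 88.1 to 344 CPM over 10 libraries (median 211) against 40.8 to 75 CPM (median 53), without overlap (1.67 ± 0.23, edgeR adjusted p = 4.93e-12). Of 28 genes in the Crym cluster, 11 were higher and 7 lower, beside 8.12% and 12.8% of all genes, and the lower ones included Gabrq (−3.24), Gabrg1 (−3.0) and Grik1 (−2.81). In the cluster led by Ppp1r17 Gria3 was at 0 to 1000 CPM (median 525) against 106 to 261 CPM (median 199), higher in 15 of 16 libraries (1.49 ± 0.12, edgeR adjusted p = 7.6e-31), and Grik1 was the lowest gene (−3.66). Foxb1 neurons, with Slc17a6 at 928 CPM, had Gabbr2 as the gene of the largest called fold change, at 91.8 to 533 CPM (median 192) against 85.9 to 224 CPM (median 125), higher in 12 of 15 (0.81 ± 0.16, edgeR adjusted p = 3.74e-06).

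Clusters led by peptide genes were described by the subunit gene of their largest called fold change over the other neurons, which was Gabrq in 2 of them and Gabra5 in 2. Neurons of the Oxt cluster, which also held Avp, had Grm3 at 75.9 to 312 CPM over 13 libraries (median 152) against 8.49 to 58.8 CPM (median 34), without overlap (log2 fold change 2.16 ± 0.25, edgeR adjusted p = 6.31e-16). The largest cluster, led by Gnrh1 with Gal, Th and Ghrh among its leading genes, had Gabrq at 70.8 to 143 CPM (median 117) against 36.7 to 82.8 CPM (median 53.4), higher in 16 of 16 libraries (0.96 ± 0.10, edgeR adjusted p = 1.49e-11), while 18 of its 29 genes were lower and 3 higher, beside 13.7% and 14.2% of all genes. In the cluster led by Moxd1, Gria1 ranged from 570 to 1200 CPM (median 899) against 239 to 601 CPM (median 405), higher in 13 of 13 (0.80 ± 0.16, edgeR adjusted p = 3.47e-05). Pmch neurons had Gabrq at 0 to 820 CPM (median 203) against 46.6 to 97.6 CPM (median 66.2), higher in 13 of 16 (1.52 ± 0.30, edgeR adjusted p = 9.65e-06). Its 8 higher and 2 lower calls of 26, beside 10.4% and 44.5% of all genes, became 3 and 12 with DESeq2 size factors, which moved the median of all genes in this cluster by −0.83, so the direction of its calls rests on the scaling, and Gabrq itself had 0.20 (adjusted p = 0.716) in cells with more than 500 genes. Gabra5 had the largest called fold change among the subunit genes of the clusters led by Pomc (0.74 ± 0.22, edgeR adjusted p = 0.0152; 0 to 397 CPM, median 160, against 56.3 to 116 CPM, median 87.9) and Hcrt (0.25 ± 0.10, edgeR adjusted p = 0.0489; 56.4 to 154 CPM, median 101, against 55.6 to 120 CPM, median 86.4). Grm8 had it in the 39 neurons of the cluster led by Hdc, in 4 of 6 libraries (0.76 ± 0.25, edgeR adjusted p = 0.0304; 94.6 to 1080 CPM, median 591, against 239 to 332 CPM, median 293). In the cluster led by Gm10800, which had markers of another cell type, it was Grik5 (0.70 ± 0.24, edgeR adjusted p = 0.0411; 49 to 327 CPM, median 91.6, against 43.4 to 78.5 CPM, median 64.7). The calls of Gabra5 in both clusters, of Grm8 and of Grik5 were lost when single libraries were left out: Gabra5 in Pomc without WT oil replicate 3 or Esr1cKO oil replicate 3 (0.65), Gabra5 in Hcrt without any of 10 libraries (0.20 to 0.25), Grm8 in Hdc without WT oil replicate 1 (0.70), Esr1cKO oil replicate 3 (0.52) or Esr1cKO tamoxifen replicates 1 or 4 (0.62 and 0.72), and Grik5 in Gm10800 without any of 7 libraries (0.56 to 0.68).

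The groups were compared in 14 libraries, 2 of WT oil, 5 of WT tamoxifen, 4 of Esr1cKO oil and 3 of Esr1cKO tamoxifen, with 1 edgeR fit of the 4 groups per cell type. These comparisons ask whether tamoxifen or the loss of Esr1 changed the receptors. None of the 167 tests of a subunit gene in a cell type passed the threshold in any of the 5 contrasts, where 0.00896% (tamoxifen in WT), 0.00299% (tamoxifen in Esr1cKO), 0.0224% (interaction of genotype and tamoxifen), 0.00597% (genotype under oil) and 0.0164% (genotype under tamoxifen) of 66994 tests of all genes passed. At an unadjusted p under 0.05, edgeR gave 12, 8, 12, 15 and 3 of the 167 in the same order, and DESeq2, which also called 0, gave 8, 7, 10, 14 and 1. The share of all genes under this unadjusted threshold was not counted, so these numbers are no sign of a change. None of the 263 tests of the other genes passed either. In simulated data of the WT neurons, the test recovered 50.5% of changes of 1 and 90.8% of changes of 2 on the log2 scale, so changes of these sizes and smaller could go undetected with these numbers of mice. The contrasts share control libraries and are not independent of each other.

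The smallest p of any subunit gene was that of Grik3 in ependymal cells. It stood at 578 and 291 CPM in the WT oil libraries and at 189, 217, 151, 148 and 205 CPM in the WT tamoxifen libraries, without overlap. Esr1cKO mice held 267, 236, 194 and 103 CPM under oil and 228, 207 and 186 CPM under tamoxifen. The tamoxifen change in WT was −1.26 ± 0.29 on the log2 scale (edgeR adjusted p = 0.112), and −0.69 (adjusted p = 1) without WT oil replicate 1, which held the highest value. The difference of genotype under oil was −1.16 ± 0.30 (edgeR adjusted p = 0.465). WT oil replicate 1 also held the highest Grik3 of the 16 libraries in microglia (888 CPM), endothelial cells (306 CPM), polydendrocytes (261 CPM) and oligodendrocytes (187 CPM). In neurons, astrocytes, mural cells and fibroblasts another library was highest. The part of this library in the ependymal values was not tested further.

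In neurons, the 3 genes with the smallest p in each contrast are given as values, since none passed. Grm7 was at 486 and 377 CPM in WT oil and at 270, 265, 282, 232 and 189 CPM in WT tamoxifen, without overlap (log2 fold change −0.77 ± 0.23, edgeR adjusted p = 0.62). In Esr1cKO it was at 258, 509, 200 and 318 CPM under oil and 276, 385 and 311 CPM under tamoxifen, and the interaction was 0.73 ± 0.32 (edgeR adjusted p = 0.649). Without the filter on low counts the tamoxifen change in WT passed at −0.73 (edgeR adjusted p = 0.0225). Grm4 was at 35.9 and 22.3 CPM in WT oil, 12.3 to 20.6 CPM in WT tamoxifen (−0.74 ± 0.35, edgeR adjusted p = 0.768) and 8.97 to 20.3 CPM in Esr1cKO oil (−0.98 ± 0.37, edgeR adjusted p = 0.467). Gabrb2 was at 73.5 and 74.5 CPM in WT oil and 42.1 to 69.1 CPM in WT tamoxifen (−0.41 ± 0.22, edgeR adjusted p = 0.778). For these 3 genes both WT oil libraries lay above all WT tamoxifen libraries, but the genes were picked by smallest p from these same values. How many of all genes separate in this way, here or in the contrasts below, was not counted. The separation is therefore a description and no sign of a change.

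Within Esr1cKO, Grik3 was at 60.2 to 73 CPM under oil and 78.2 to 113 CPM under tamoxifen (0.55 ± 0.19, edgeR adjusted p = 0.963), Gria3 at 220 to 246 and 162 to 193 CPM (−0.45 ± 0.17, edgeR adjusted p = 0.963), and Gria4 at 300 to 538 and 287 to 329 CPM (−0.44 ± 0.18, edgeR adjusted p = 0.963). The first 2 of these did not overlap, and Gria4 did. Gria3 in WT was at 160 and 244 CPM under oil and 187 to 261 CPM under tamoxifen, and its interaction was −0.56 ± 0.25 (edgeR adjusted p = 0.646). Grin1 had an interaction of 0.47 ± 0.27 (edgeR adjusted p = 0.732). Under oil, Grm3 was at 57.1 and 56.5 CPM in WT and 30.2 to 45.3 CPM in Esr1cKO (−0.53 ± 0.26, edgeR adjusted p = 0.581), and Grm2 at 21.2 and 18 CPM in WT and 7.63 to 17.6 CPM in Esr1cKO (−0.77 ± 0.42, edgeR adjusted p = 0.623). Under tamoxifen, Gabbr2 was at 98.3 to 223 CPM in WT and 80.8 to 116 CPM in Esr1cKO (−0.43 ± 0.21, edgeR adjusted p = 1), Gabra4 at 52.5 to 76.2 and 46.3 to 59.4 CPM (−0.33 ± 0.19, edgeR adjusted p = 1), and Grm7 had 0.38 ± 0.21 (edgeR adjusted p = 1). The share of GABA neurons was 26.2% and 43% in WT oil, 32% to 45.6% in WT tamoxifen, 40.2% to 50.7% in Esr1cKO oil and 39.4% to 56% in Esr1cKO tamoxifen, and its part in these values was not tested. Neurons of clusters with markers of another cell type were 14% and 15.7% in WT oil and 18.7% to 26.1% in WT tamoxifen, without overlap, and 10.9% to 19.3% and 12.3% to 16.2% in Esr1cKO under oil and tamoxifen. Without these clusters, an alternative chosen after seeing the data, the tamoxifen change in WT neurons was −0.76 for Grm7, −0.64 for Grm4 and −0.41 for Gabrb2 (edgeR adjusted p = 0.576, 0.759 and 0.758).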

How the data were processed

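Single cells of the hypothalamus and preoptic area of 16 mice were measured by Drop-seq. The authors deposited, for each library, a table of UMI counts per gene symbol and cell barcode, as whole numbers without normalization or pooling of replicates. Per the labels, the submitters' processing notes name STAR 2.6, Seurat 3.6.1 and the build mm10, and the counting program and annotation are not given in the sources used here. Reads of a gene that overlaps another, as 23 of the 34 subunit genes do (11 with a gene of the tables), may be shared.

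A barcode was kept as a cell if it showed over 200 genes, less than 4000 genes and a mitochondrial share below 15%. Cell grouping used Seurat 5.3.0 under R 4.3.3, taking 2000 variable genes, 30 anchor dimensions between the 4 groups, 20 components and resolution 0.05. The 34 subunit genes and the 56 other genes of GABA and glutamate signalling were taken out of the variable genes. Clusters were named from fixed marker lists, with at least 3 markers of 20 or more UMIs at a log2 fold of 1 or more. For neurons alone the grouping was repeated at resolution 0.7 from 500 variable genes. Scrublet in scanpy 1.11.5 (Python 3.11.15) called 476 doublets (0.855%), which were removed only in an alternative.

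UMIs were summed per library and cell group, since cells of a library are not replicates, and tested with the quasi-likelihood test of edgeR 4.0.16 after its low-count filter, under TMM scaling, and p-values were adjusted by Benjamini-Hochberg over all genes of a comparison. Comparisons of cell groups had the library as a block and needed 10 cells per library on each side, or 3 neurons of a cluster in at least 4 libraries. Fold changes are on the TMM scale and levels are CPM of the summed UMIs, so their ratios can differ. Values are compared between cell groups within a gene, not between genes. In comparisons of the 4 groups the p-values measure the spread between mice, 1 library each. In comparisons of cell groups they measure how far the differences within a library vary between libraries. Replicate numbers follow accession order. Tests on simulated data with 200 changed genes recovered, at a log2 change of 0.5, 88.9% in neurons against other cells (13158 genes), 76.1% in GABA against glutamate neurons (7236 genes), 74% in astrocytes (11254 genes) and 52.6% in the Vipr2 cluster (6107 genes).

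The subunit genes and lists were chosen with earlier results of these data known. Per-library values are given for the largest and smallest fold change of each receptor family in neurons, up to 3 genes of a log2 fold change of at least 1 per non-neuronal type, up to 5 per direction between GABA and glutamate neurons, the highest called gene of each neuronal cluster, and in groups the called genes and the 3 of smallest p in neurons. Of the other list, the 3 highest are named per comparison of cell types and classes and in selected clusters. Kctd12 was not used. The values of 1 neuronal cluster and of 2 genes of the other list are not reported here, and all 3 stayed in the fits and counts. Alternatives were DESeq2 1.42.0 with its own test, its size factors in edgeR, no filter on low counts, stricter cell filters, other cell types, other libraries, and cells of shared barcodes, mixed clusters and S10 and S11 alone, the last 3 added after seeing the data.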

Additional observations from a re-analysis of the deposited data

Results flagged for a closer look

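Of 22 groups of 4 to 10 libraries tested for a library far from the rest, 1 had one. Gabbr2 in neurons of WT tamoxifen replicate 5 (library S16) stood at 223 CPM, the highest of 5, with the others at 98.3 to 134 CPM and a gap of 0.714 of the whole range. For a single gene that was not selected, chance alone gives such a library in about 1 of 20 groups. The genes tested here were picked by smallest p in the group comparisons from these same values, so that rate need not hold for Gabbr2. Gabbr1, not among the genes tested in this way, was also highest in S16. It stood there at 574 CPM in neurons, against 250 to 288 CPM in the other WT tamoxifen libraries. In glutamate neurons of S16 it stood at 875 CPM. The 2 GABA-B genes were not tested together, so the rate given does not cover them. S16 is also among the libraries that share cell barcodes, and the part of this in these values was not tested.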

How the results depend on the processing

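No paired analysis was possible because the labels give no replicate numbers and tie no mouse to a processing day. With a term for library numbers in successive fours, which may not match those days, edgeR gave 0 calls in the 5 group contrasts, and 9 (tamoxifen in WT), 13 (tamoxifen in Esr1cKO), 11 (interaction), 19 (genotype under oil) and 4 (genotype under tamoxifen) of 167 tests at an unadjusted p under 0.05. The share of all genes under that unadjusted threshold was not counted here either. Totals within 1.5 times of those reported are not listed. Tamoxifen in WT gave 0 calls as reported, 1 with all 16 libraries and a term for S10 and S11, 2 without the filter on low counts (Grm7 in neurons and Grik3 in ependymal cells), and 0 to 1 with single libraries left out, 1 without WT oil replicate 2 (Grik3 in ependymal cells −1.68, edgeR adjusted p = 0.0146) or Esr1cKO oil replicate 4 (adjusted p = 0.0298). The other group contrasts gave 0 under every alternative run. GABA against glutamate neurons gave 12 calls as reported, 7 in neurons of 1000 to 3000 UMIs (21 genes tested), and 10 to 12 with single libraries left out. Neuronal clusters gave 316, 195 with at least 10 neurons per library, 164 with under 5% mitochondrial UMIs (fewer tests, 502 and 507), and 293 to 320 with single libraries left out. By direction, the 78 higher and 238 lower calls of clusters became 50 and 380 without the filter on low counts, 59 and 105 under 5% mitochondrial UMIs and 72 and 123 with at least 10 neurons per library, and the 7 and 5 of GABA neurons became 4 and 3 at 1000 to 3000 UMIs and 5 and 3 under 5% mitochondrial UMIs. In the latter cells, lower calls went from 17 to 11 in oligodendrocytes, 23 to 15 in endothelial cells, 21 to 12 in microglia and 17 to 11 in ependymal cells, with 14 to 20 genes tested. Calls numbered 33 in neurons with every library left out in turn and 42 to 44 in the non-neuronal types (43 as reported).

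In S10 and S11 alone, chosen after seeing the data, Grik3 turned to 1.06 in neurons and to −1.69 in microglia (edgeR adjusted p = 0.17). Of 32 subunit genes then tested and called in all libraries, 30 were called in the same direction in neurons, 1 (Grik3) in the opposite one and 1 not, while in oligodendrocytes 2 of 6 were called in the same direction, 1 (Gabrg3, −2.04) in the opposite one and 3 not; in astrocytes 14 of 16 and in polydendrocytes 11 of 11 were called in the same direction. Scaling by DESeq2 size factors in edgeR moved the median of all genes by over 0.1 in several clusters and types, most in Ndnf (1.01), Pmch (−0.83), B230323A14Rik (−0.73), Hba-a2 (0.68), Vip (0.44) and mural cells (−0.43). Higher and lower calls then went from 8 and 2 to 3 and 12 in Pmch, from 4 and 2 to 4 and 5 in Shox2, from 2 and 4 to 4 and 1 in Moxd1, from 5 and 8 to 3 and 18 in B230323A14Rik, from 0 and 10 to 1 and 7 in Agrp and from 1 and 9 to 3 and 8 in Hdc. With the DESeq2 test, they went from 3 and 3 to 1 and 3 in Hcrt. The cause of these changes was not tested. Genes under 20 CPM and clusters under 100 neurons rest on few UMIs.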
